A study of Mus musculus with 8 samples.

Results

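The Ikaros family of zinc finger transcription factors was examined in MLL-AF9 leukaemia cells recovered from mice that had received chemotherapy on a standard diet or on a diet free of branched-chain amino acids (BCAA). The family comprises Ikzf1 (Ikaros), Ikzf2 (Helios), Ikzf3 (Aiolos), Ikzf4 (Eos) and Ikzf5 (Pegasus). Its members were chosen as the gene identifiers that mapped to these symbols, and all 5 were present among the 27179 identifiers of the deposited count table. Of the 5, 4 passed the filter on low counts and were tested, and Ikzf4 did not.

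MLL-AF9 is a fusion oncogene that drives acute myeloid leukaemia. The cells came from 1 terminally ill mouse and had been expanded ex vivo with SCF, IL-3 and IL-6, so every library derives from the same line. They carried green fluorescent protein (GFP), under a ubiquitin element as the labels describe it, and luciferase under the β-actin promoter. In both groups, the cells were injected intravenously into unconditioned male mice aged 8 to 10 weeks, and the genotype is labelled wild type. All mice of both groups received 5+3 chemotherapy, in which cytarabine (100 mg/kg) was given once a day over 5 days and doxorubicin (3 mg/kg) over the first 3 of them, and living (7AAD-negative) GFP-positive cells were sorted from bone marrow at the time of greatest response. The groups differed in diet. There were 5 libraries from the standard amino acid diet, labelled AA, and 3 from the diet labelled BCAA, which the series' title and design show to be BCAA-free. The labels call the libraries biological replicates, and they do not say how many mice each one holds.

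Library totals ran from 14851240 to 38966911 counts. Markers of myeloid leukaemia cells were abundant in every library, with a summed level of 11415 to 17836 CPM (counts scaled to library size) over 14 genes that include Mpo, Hoxa9 and Meis1, as the label of the cells implies. The libraries differed in the levels of genes listed as markers of other cell types. Whether that RNA came from other cells or from the leukaemia cells was not tested. The sum over 8 neutrophil genes ran from 722 CPM in standard-diet replicate 2 to 5922 CPM in standard-diet replicate 3, and 8 of 8 were detected in every library. The sum over 9 B cell genes was highest, at 138.8 CPM, in BCAA-free replicate 2, against 10.8 to 52.1 CPM elsewhere. In bulk RNA of this kind, fewer cells of a type and less RNA per cell cannot be told apart.

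Ikaros family proteins bind DNA through a cluster of zinc fingers near the amino terminus and pair with one another through fingers at the carboxy terminus. They recruit chromatin regulators, among them the Mi-2/NuRD complex and the corepressors CtBP and Sin3, and they are known chiefly for the development of lymphocytes. Helios has also been reported to sustain leukaemia stem cells in MLL-AF9 leukaemia, with effects on Hoxa9, Myc and C/EBP genes. In human cells, the second zinc finger is the stretch of Ikaros and Aiolos that is held against cereblon, a ubiquitin ligase subunit, by thalidomide-like drugs.

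The mouse coding sequence of that second finger is shown because it is the stretch that thalidomide-like drugs present to cereblon in human Ikaros and Aiolos. It also shows how far apart the members are for a short read. Each stretch is 69 bases long, is given 5′ to 3′ on the coding strand of the GRCm38 assembly with GENCODE gene models, and lies within a single exon, which is exon 5 of Ikzf1 to Ikzf4 and exon 4 of Ikzf5. Capitals mark bases that differ from Ikzf1 at the same place.
Ikzf1: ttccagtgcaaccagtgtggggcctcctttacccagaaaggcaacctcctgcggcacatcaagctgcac
Ikzf2: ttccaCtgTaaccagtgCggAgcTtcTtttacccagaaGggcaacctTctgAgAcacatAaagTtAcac
Ikzf3: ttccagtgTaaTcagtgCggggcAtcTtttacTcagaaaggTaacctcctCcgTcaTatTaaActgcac
Ikzf4: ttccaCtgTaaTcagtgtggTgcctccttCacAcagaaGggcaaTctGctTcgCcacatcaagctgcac
Ikzf5: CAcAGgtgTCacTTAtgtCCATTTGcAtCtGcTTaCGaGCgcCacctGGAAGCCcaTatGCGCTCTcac
The stretches are at chr11:11754018-11754086 on the plus strand for Ikzf1, and on the minus strand at chr1:69570581-69570649 for Ikzf2, chr11:98488940-98489008 for Ikzf3, chr10:128640229-128640297 for Ikzf4 and chr7:131392501-131392569 for Ikzf5. The stretch of Helios kept 56 of the 69 bases of Ikaros, that of Aiolos 57 and that of Eos 58, and the Pegasus stretch kept 28, or 40.6%. Each stretch is the second zinc finger pattern in its coding sequence, taken by order without aligning the fingers. Ikzf5 has 5 such patterns and Ikzf1 has 6, so the Pegasus stretch may not be the counterpart of the Ikaros finger. The differences of Ikzf2, Ikzf3 and Ikzf4 from Ikzf1 were scattered along the finger.

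Reads were 38 bases long, and no pair of members shared a single run of 38 bases anywhere in their transcripts. The longest shared run of any pair was 32 bases, a simple repeat in the Helios and Eos transcripts, and it was 26 bases for Ikaros and Aiolos and 17 bases for Ikaros and Helios. Reads that match without error can therefore be assigned to 1 member of the family. Other genes at the same place are a separate matter. None of the 38-base runs of the Ikzf1 and Ikzf3 transcripts occurred in the transcript of another gene. For Ikzf4, 54 of 5111 runs (1.06%) occurred in transcripts of other genes, 2049 of them. For Ikzf2, 109 of 9241 runs (1.18%) lay in the antisense gene Gm29114. Of the Ikzf5 runs, 84.0% were shared with 3 other genes, Pstk, Gm10356 and Gm44624. Which of the 3 held the most, 79.9% of all Ikzf5 runs, was not recorded. Pstk is a kinase gene of selenocysteine synthesis on the opposite strand. Whether the counting used strand is not stated in the sources used here, and Ikzf5 counts are therefore uncertain.

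The comparison asked how transcript levels of the family differed between the diets after chemotherapy. Helios fell on the BCAA-free diet, while Ikaros and Pegasus did not pass the test. Aiolos and Eos were low, and each had its highest value in BCAA-free replicate 2. The fit, edgeR's quasi-likelihood test on all 13364 tested genes with Benjamini-Hochberg adjustment, called 1 of the 4 tested members, Ikzf2, at an adjusted p under 0.05. Over all tested genes 0.756% were called, 0.539% lower and 0.217% higher, and the median log2 fold change was 0.02. A count of 1 among 4 is too small to be read as a property of the family. Every fold change sets the BCAA-free diet over the standard diet, and CPM are scaled to library sizes adjusted by TMM factors.

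**Figure D1:**
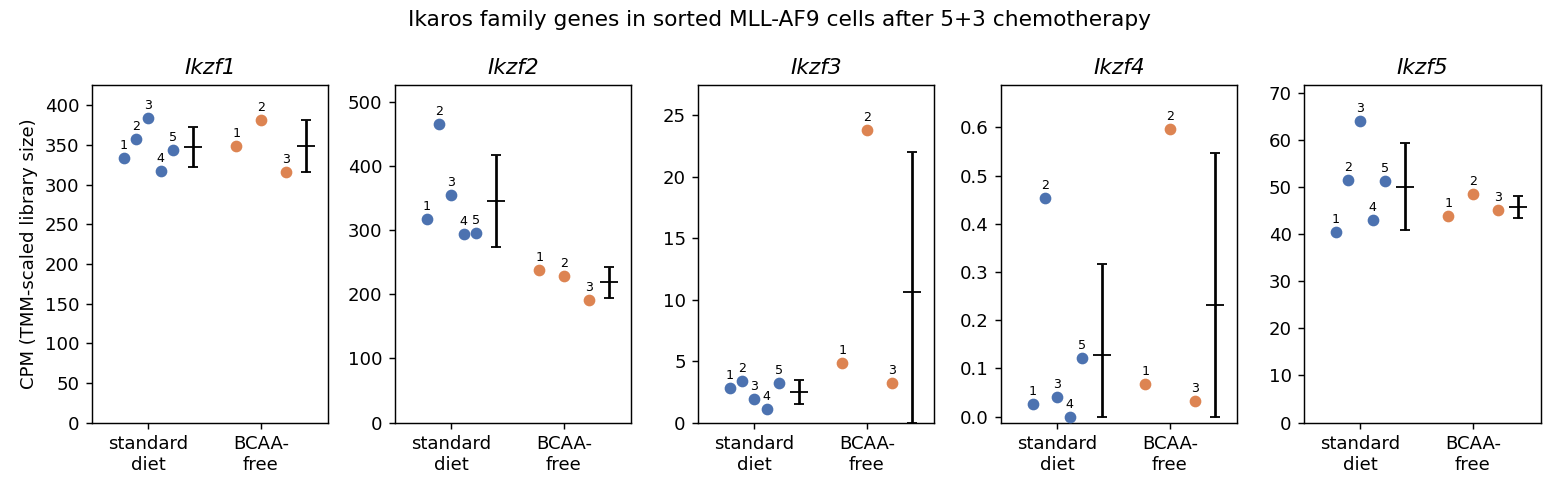
Level of each Ikaros family gene in every library, in CPM on linear axes that differ between panels. Points are libraries with their replicate numbers (5 standard diet, 3 BCAA-free), and the bar beside each group is the mean with its SD, which is drawn no lower than 0. The 3 BCAA-free values of Ikzf2 lie below all 5 standard-diet values, and those of Ikzf1 spread over nearly the same range as the standard-diet values.

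Ikzf2 (Helios, gene 22779) spans chromosome 1 from 69531207 to 69687351 in GRCm38. In standard-diet replicates 1 to 5 its level was 317.9, 465.2, 354.9, 294.5 and 295.0 CPM. In BCAA-free replicates 1 to 3 it was 237.7, 228.1 and 191.7 CPM. Every BCAA-free library was thus below every standard-diet library, a separation in the lower direction that 4.68% of tested genes showed (8.84% in either direction), and standard-diet replicate 2 was the highest of all. The mean fell from 346 ± 71.3 CPM (SD, n = 5) to 219 ± 24.3 CPM (SD, n = 3). The log2 fold change was -0.66 (SE 0.14, 95% interval -0.96 to -0.35), a fall of 1.58-fold. Its adjusted p by the quasi-likelihood test of edgeR was 0.0483, just inside the threshold of 0.05.

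That call depended on the fit. The log2 fold change of Ikzf2 was negative in all 16 alternative fits, between -0.78 and -0.53, and the adjusted p was under 0.05 in 2 of them, DESeq2 (0.00154) and edgeR with no filter on low counts (0.00299). Those fits also called more genes lower, 1.85% and 0.858% of those they tested, with 0.963% and 0.352% called higher. Leaving out any 1 library removed the call, with an adjusted p between 0.0545 (without standard-diet replicate 2, where the log2 fold change was -0.53) and 0.150 (without BCAA-free replicate 2). It was lost with RLE factors (0.0541), limma-voom (0.0617), the non-robust dispersion (0.0662) and upper-quartile factors (0.0724).

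**Figure D2:**
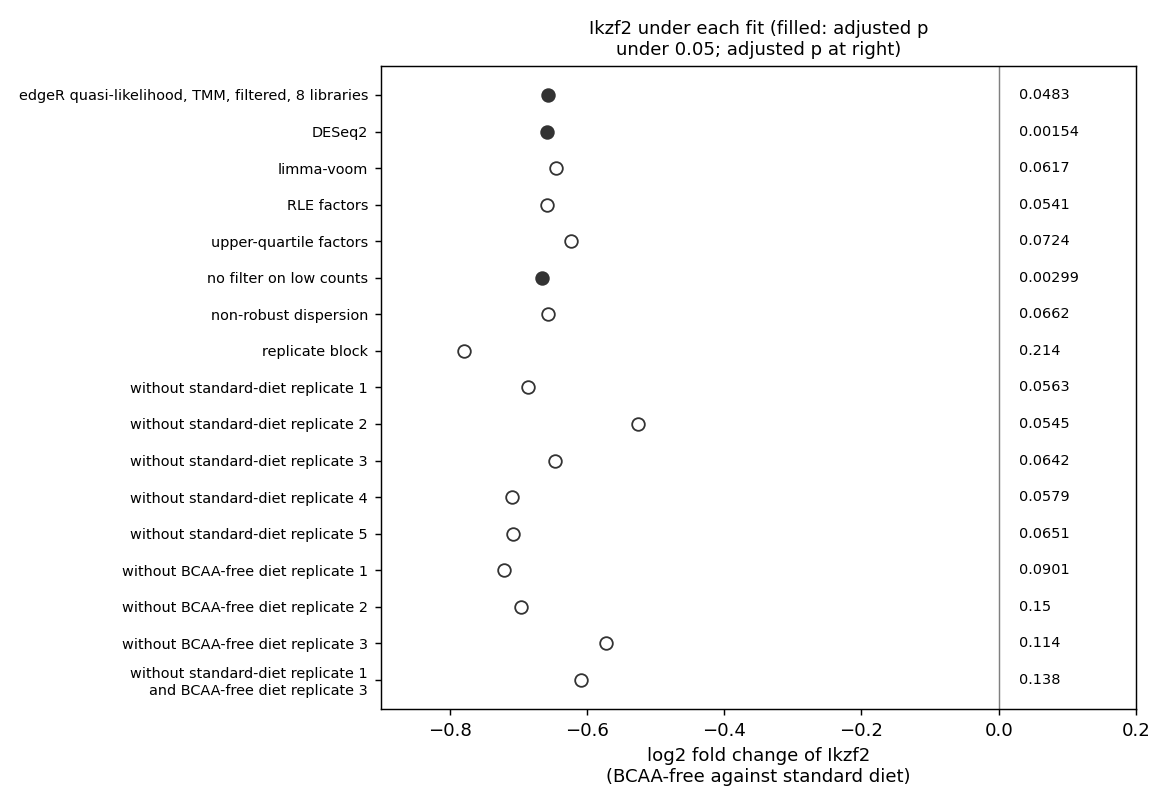
Log2 fold change of Ikzf2, BCAA-free against standard diet, in the fit reported and in 16 alternatives, with the adjusted p of each at the right. Filled points have an adjusted p under 0.05. All points lie between -0.78 and -0.53, and 3 of the 17 are filled.

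Ikzf1 (Ikaros, gene 22778, chromosome 11 from 11684962 to 11772930) is the founding member of the family and is needed for lymphocyte development. Its level was 333.3, 357.2, 383.8, 317.5 and 344.4 CPM in standard-diet replicates 1 to 5. In the BCAA-free replicates it was 349.3, 381.8 and 316.5 CPM. The groups overlapped almost wholly, at means of 347 ± 25.1 CPM (SD, n = 5) and 349 ± 32.7 CPM (SD, n = 3). The log2 fold change was 0.01 (SE 0.10) with an adjusted p of 0.985 by the quasi-likelihood test of edgeR. Its 95% interval, -0.21 to 0.22, does not reach the Ikzf2 estimate of -0.66. The sign of this estimate differed in 5 of the 16 alternatives, all within -0.07 to 0.07 and none of them called.

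Because Ikzf1 and Ikzf2 were counted in the same libraries, the ratio of their counts does not depend on library scaling. Helios counts per Ikaros count were 0.954, 1.30, 0.925, 0.928 and 0.857 in standard-diet replicates 1 to 5 and 0.681, 0.597 and 0.606 in the BCAA-free replicates. The ranges did not overlap. Helios made up 42.5% to 53.0% of the summed CPM of the family, without correction for length, on the standard diet and 33.4% to 37.4% on the BCAA-free diet. The ratio was not tested, and it rests on the same Ikzf2 values as the call above. It cannot show which of these genes differed.

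**Figure D3:**
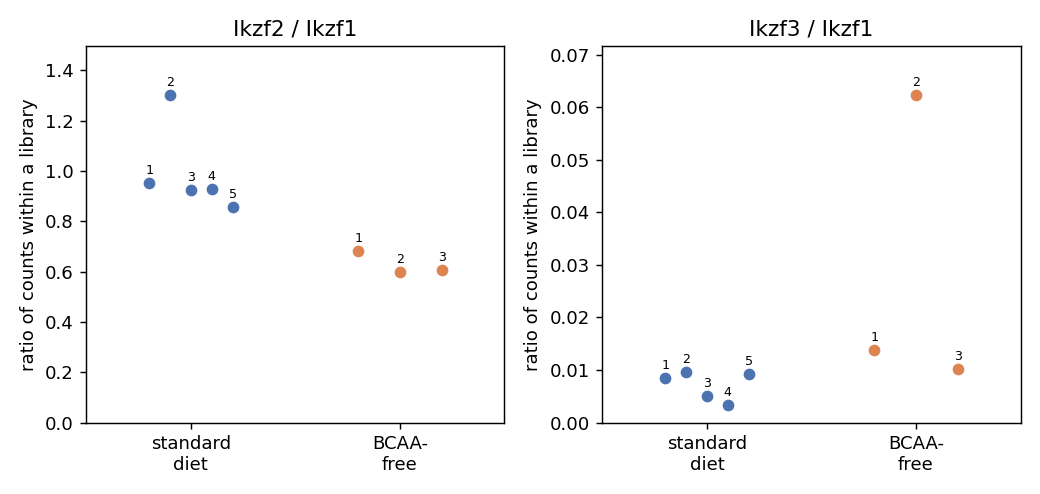
Counts of Ikzf2 (left) and Ikzf3 (right) divided by counts of Ikzf1 in the same library, on linear axes from 0. Points are libraries with their replicate numbers. The Ikzf2 ratio is at least 0.857 in the 5 standard-diet libraries and at most 0.681 in the 3 BCAA-free libraries, and the Ikzf3 ratio is highest in BCAA-free replicate 2.

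Ikzf3 (Aiolos, gene 22780, chromosome 11 from 98464610 to 98546031) is a factor of maturing B cells and other lymphocytes. It was low in these cells, with 112, 60, 49, 18 and 53 counts in standard-diet replicates 1 to 5, which is 2.85, 3.40, 1.94, 1.08 and 3.20 CPM. The BCAA-free replicates had 72, 439 and 102 counts, or 4.83, 23.8 and 3.24 CPM. Replicate 2 of the BCAA-free diet stood far above the rest, and BCAA-free replicate 3 lay within the standard-diet range. The means were 2.50 ± 0.970 CPM (SD, n = 5) and 10.6 ± 11.4 CPM (SD, n = 3). The log2 fold change of 2.08 (SE 0.59, 95% interval 0.79 to 3.37) did not pass the quasi-likelihood test of edgeR (adjusted p = 0.151). Without BCAA-free replicate 2 it was 0.68 (adjusted p = 0.595), and without BCAA-free replicate 3 it was 2.51 and passed (adjusted p = 0.0260).

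Aiolos and the summed B cell markers were both highest in BCAA-free replicate 2. The T cell and NK cell marker sums were highest in that library too, at 59.2 and 12.8 CPM. Among standard-diet libraries, Ikzf3 was highest in replicate 2 (3.40 CPM) and the B cell sum in replicate 5 (20.2 CPM). Of 9 B cell markers listed, 8 passed the filter on low counts, 3 rose, among them Cd79b and Cd79a, and none fell. The median log2 fold change was 3.03 over the 8 against 0.02 over all tested genes. The summed level of the 9 was 18.1, 13.5, 10.8, 11.8 and 20.2 CPM in standard-diet replicates 1 to 5 and 52.1, 138.8 and 29.1 CPM in the BCAA-free replicates. Ebf1, Blk and Fcrla were at 0 in at least 1 library. Without BCAA-free replicate 2, the library in which Ikzf3 was highest, no B cell marker passed and the median was 1.72. Dropping standard-diet replicate 2, 4 or 5 left 1 of them called, and dropping BCAA-free replicate 3 gave 4. The sort kept GFP-positive cells, and the part of B cell RNA in the Ikzf3 values was not tested.

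**Figure D4:**
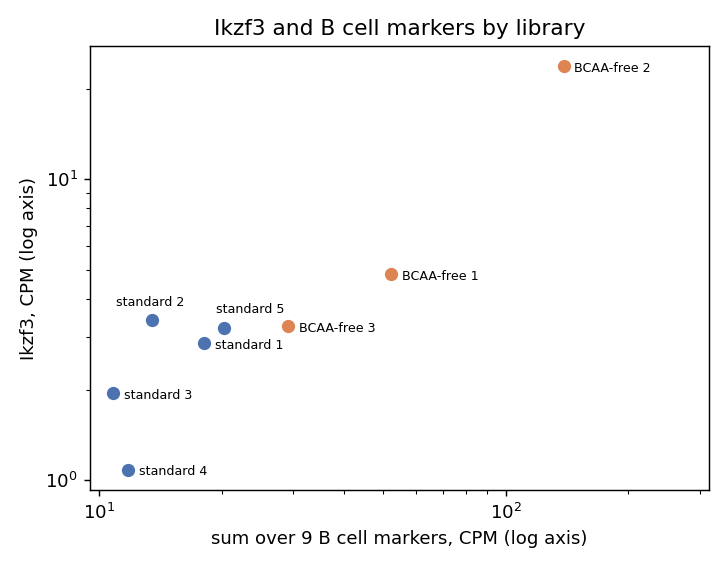
Level of Ikzf3 against the summed level of 9 B cell markers in each library, both in CPM on log axes. Points are the 5 standard-diet and 3 BCAA-free libraries, named beside them. BCAA-free replicate 2 has the highest value on both axes (23.8 and 138.8 CPM), and BCAA-free replicate 3 lies among the standard-diet libraries on the Ikzf3 axis.

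Ikzf4 (Eos, gene 22781, chromosome 10 from 128630839 to 128669671) acts with Foxp3 in regulatory T cells and was close to undetected. It had 25 counts in all, with 1, 8, 1, 0 and 2 in standard-diet replicates 1 to 5 and 1, 11 and 1 in the BCAA-free replicates. Most of the counts lay in replicate 2 of each group. Whether any of them came from the runs that Ikzf4 shares with other genes was not tested. For standard-diet replicate 4 the count of 0 allows up to 0.180 CPM (3 counts, counting error only). In edgeR with no filter the log2 fold change was 0.84 (SE 1.61, adjusted p = 0.851). A difference between diets was not detectable at this depth.

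Ikzf5 (Pegasus, gene 67143, chromosome 7 from 131388649 to 131410518) is the most divergent member and, as a factor with a broad pattern of expression, is less well described. Its level was 40.5, 51.5, 63.9, 43.0 and 51.2 CPM in standard-diet replicates 1 to 5 and 43.8, 48.4 and 45.0 CPM in the BCAA-free replicates. All BCAA-free values lay inside the standard-diet range. The log2 fold change was -0.13 (SE 0.15, 95% interval -0.44 to 0.18, adjusted p = 0.750 by the quasi-likelihood test of edgeR). Pstk, whose transcripts overlap it on the opposite strand, was at 9.07 ± 2.54 CPM (SD, n = 5) and 9.69 ± 2.88 CPM (SD, n = 3), with a log2 fold change of 0.09 (adjusted p = 0.927).

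The members were ranked by CPM per kilobase of a reference transcript. On the standard diet Ikzf1 was highest at 67.3 ± 4.87 CPM per kb, then Ikzf2 at 37.2 ± 7.68, Ikzf5 at 11.3 ± 2.07, Ikzf3 at 0.683 ± 0.265 and Ikzf4 at 0.0249 CPM per kb (SD, n = 5). The order was the same on the BCAA-free diet, at 67.6 ± 6.33, 23.6 ± 2.62, 10.3 ± 0.543, 2.90 ± 3.12 and 0.0450 CPM per kb (SD, n = 3). The ranges of neighbours in this order did not overlap within either group. The first step in it depends on the length used, since the Ikzf2 transcript is 9278 bases long and that of Ikzf1 5163, while their coding lengths are 1578 and 1545 bases. Per kilobase of coding length, Ikzf1 at 225 ± 16.3 and Ikzf2 at 219 ± 45.2 CPM per kb overlapped on the standard diet (SD, n = 5), and they did not overlap on the BCAA-free diet at 226 ± 21.2 and 139 ± 15.4 CPM per kb (SD, n = 3).

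Helios also marks T cells, regulatory T cells above all, so their markers are given beside its fall. Of 10 tested T cell markers none was called by edgeR, DESeq2 or limma-voom. In edgeR 3 had an unadjusted p under 0.05, against 13.5% of all tested genes. The sums were 25.5 to 35.0 CPM on the standard diet and 24.0 to 59.2 CPM on the BCAA-free diet. Of the 10, 9 had positive log2 fold changes, with a list median of 1.04. The CD3 chains Cd3d, Cd3e and Cd3g had means of 0.361, 0.789 and 0.838 CPM on the standard diet. On the BCAA-free diet their means were 1.32, 2.09 and 1.85 CPM, and each chain was highest in BCAA-free replicate 2. Foxp3, the defining factor of regulatory T cells, was at 2.14 ± 0.924 CPM (SD, n = 5) and 2.43 ± 0.649 CPM (SD, n = 3). Il2ra, Ctla4 and Tnfrsf18, the rest of the regulatory T cell list, had means of 0.638, 0.0164 and 3.07 CPM on the standard diet. On the BCAA-free diet these were 1.88, 0.563 and 3.69 CPM. All 3 tested members had positive log2 fold changes (median 0.25), none was called, and Il2ra had an unadjusted p under 0.05 in edgeR. Ctla4 did not pass the filter on low counts, and its BCAA-free values were above all standard-diet values. Bcl11b, a transcription factor of T cell development named here after its values were seen, was the 1 tested T cell marker with a negative log2 fold change, and it gave the largest part of the T cell sum on the standard diet. It was at 12.8, 21.7, 19.2, 18.0 and 15.5 CPM in standard-diet replicates 1 to 5 and 9.46, 11.9 and 12.4 CPM in the BCAA-free replicates, lower without overlap and, like Ikzf2, highest in standard-diet replicate 2. Its log2 fold change was -0.63 (adjusted p = 0.182 by the quasi-likelihood test of edgeR). The summed myeloid leukaemia markers were 14481 to 17836 CPM on the standard diet and 11415 to 13892 CPM on the BCAA-free diet, without overlap. The sums of other lists did not overlap either, namely B cell, stroma, Mi-2/NuRD, cereblon ligase, and casein kinase 2 with protein phosphatase 1. Of the 14 myeloid genes, 0 were called in edgeR or limma-voom and 1, Mpo, was called lower by DESeq2. In edgeR 4 had an unadjusted p under 0.05, against 13.5% of all tested genes. Of the 14, 13 had negative log2 fold changes, with a median of -0.24. Mpo, the myeloperoxidase gene, was the largest part of the sum, with a mean of 8798 CPM on the standard diet and 6236 CPM on the BCAA-free diet (adjusted p = 0.0605 in edgeR). Standard-diet replicate 2, in which Ikzf2 was highest, had the lowest neutrophil sum, at 722 CPM. Other libraries did not follow that pattern. Standard-diet replicate 3 had the highest neutrophil sum, 5922 CPM, with Ikzf2 at 354.9 CPM. BCAA-free replicate 3, in which Ikzf2 was lowest (191.7 CPM), had a neutrophil sum of 1417 CPM. The part of these shifts in the Ikzf2 values was not tested.

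Genes that carry out or regulate the work of the family were taken from 7 lists. The Mi-2/NuRD list holds the nucleosome remodelling and deacetylase subunits through which Ikaros proteins act on chromatin. None of its 14 members passed in edgeR, DESeq2 or limma-voom, 5 had an unadjusted p under 0.05 against 13.5% of all tested genes, and the median log2 fold change was 0.11. Their summed level was 2760 to 2923 CPM on the standard diet and 2968 to 3082 CPM on the BCAA-free diet, without overlap. Chd4, the Mi-2β ATPase, was at 874 ± 24.5 CPM (SD, n = 5) and 946 ± 36.0 CPM (SD, n = 3), with a log2 fold change of 0.12 and an adjusted p of 0.620. The histone chaperones Rbbp4 and Rbbp7 had log2 fold changes of -0.08 and 0.01. In 3 members, Chd4, Mta2 and Mta3, the BCAA-free values were above all standard-diet values, a separation that 4.17% of tested genes showed in that direction, and Mta2 and Mta3 are named here after their values were seen. Their log2 fold changes were 0.29 and 0.42, with adjusted p of 0.208 and 0.193 by the quasi-likelihood test of edgeR.

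The list of other cofactors had 6 members, which were the CtBP and Sin3 corepressors and the SWI/SNF subunits Smarca4 and Smarcb1. No gene of it was called by edgeR, DESeq2 or limma-voom, 1 had an unadjusted p under 0.05, and the median was 0.06. Smarca4, the BRG1 ATPase, had a log2 fold change of 0.02, Sin3a 0.04 and Ctbp1 0.08, with adjusted p of 0.963, 0.891 and 0.753.

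Casein kinase 2 phosphorylates Ikaros and protein phosphatase 1 reverses this. Summed, the 6 genes for their subunits were at 1316 to 1641 CPM (standard diet) and 1146 to 1285 CPM (BCAA-free diet), without overlap. None of the 6 passed in edgeR or limma-voom, 1 had an unadjusted p under 0.05, and the median was -0.05. That gene was Ppp1cb, a catalytic subunit of protein phosphatase 1, named here after its values were seen. Its mean was 704 ± 119 CPM (SD, n = 5) on the standard diet and 456 ± 90.8 CPM (SD, n = 3) on the BCAA-free diet, with no overlap between groups, a log2 fold change of -0.63 and an adjusted p of 0.0759 by the quasi-likelihood test of edgeR. It passed with DESeq2, with no filter, without standard-diet replicate 1, and without the most deeply sequenced library of each group.

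In human cells, the cereblon ligase is the complex that thalidomide-like drugs direct to Ikaros and Aiolos. Whether mouse cereblon acts in this way was not examined here. None of its 5 members passed in edgeR, DESeq2 or limma-voom, none had an unadjusted p under 0.05 in edgeR, and the median was 0.01. Their summed level was 846 to 956 CPM on the standard diet and 960 to 1002 CPM on the BCAA-free diet, without overlap. The adaptor Ddb1 had a log2 fold change of 0.10, the scaffolds Cul4a and Cul4b 0.10 and 0.01, and the drug-binding subunit Crbn -0.25 (adjusted p = 0.447). Of 5 further proteins that such drugs can direct to the ligase, the genes of 4 were tested, and edgeR, DESeq2 and limma-voom called none of them. Among them Zbtb16 and Zfp91, named here after their values were seen, had an unadjusted p under 0.05, with log2 fold changes of -0.86 (adjusted p = 0.323) and -0.37 (adjusted p = 0.150), and the list median was -0.25.

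Genes that have been linked to Helios in MLL-AF9 leukaemia include homeobox genes, Myc and differentiation factors. Of 8 genes none was called by edgeR, DESeq2 or limma-voom, 1 had an unadjusted p under 0.05, and the median was 0.01. Hoxa9, a homeobox gene that MLL fusions activate, was at 175 ± 15.3 CPM (SD, n = 5) and 165 ± 24.6 CPM (SD, n = 3), with a log2 fold change of -0.08 and an adjusted p of 0.806. Myc had a log2 fold change of 0.12 (adjusted p = 0.698). The differentiation factors Cebpa, Cebpd and Cebpe had log2 fold changes of 0.13, 0.31 and -0.03, with adjusted p of 0.741, 0.443 and 0.961. Itgam, the CD11b integrin of mature myeloid cells, was at 387 ± 32.3 CPM (SD, n = 5) and 302 ± 65.6 CPM (SD, n = 3), a log2 fold change of -0.36 with an adjusted p of 0.229. The 95% interval of Cebpd, -0.05 to 0.67, is wide, so a change of the size seen in Ikzf2 is not excluded for it.

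**Figure D5:**
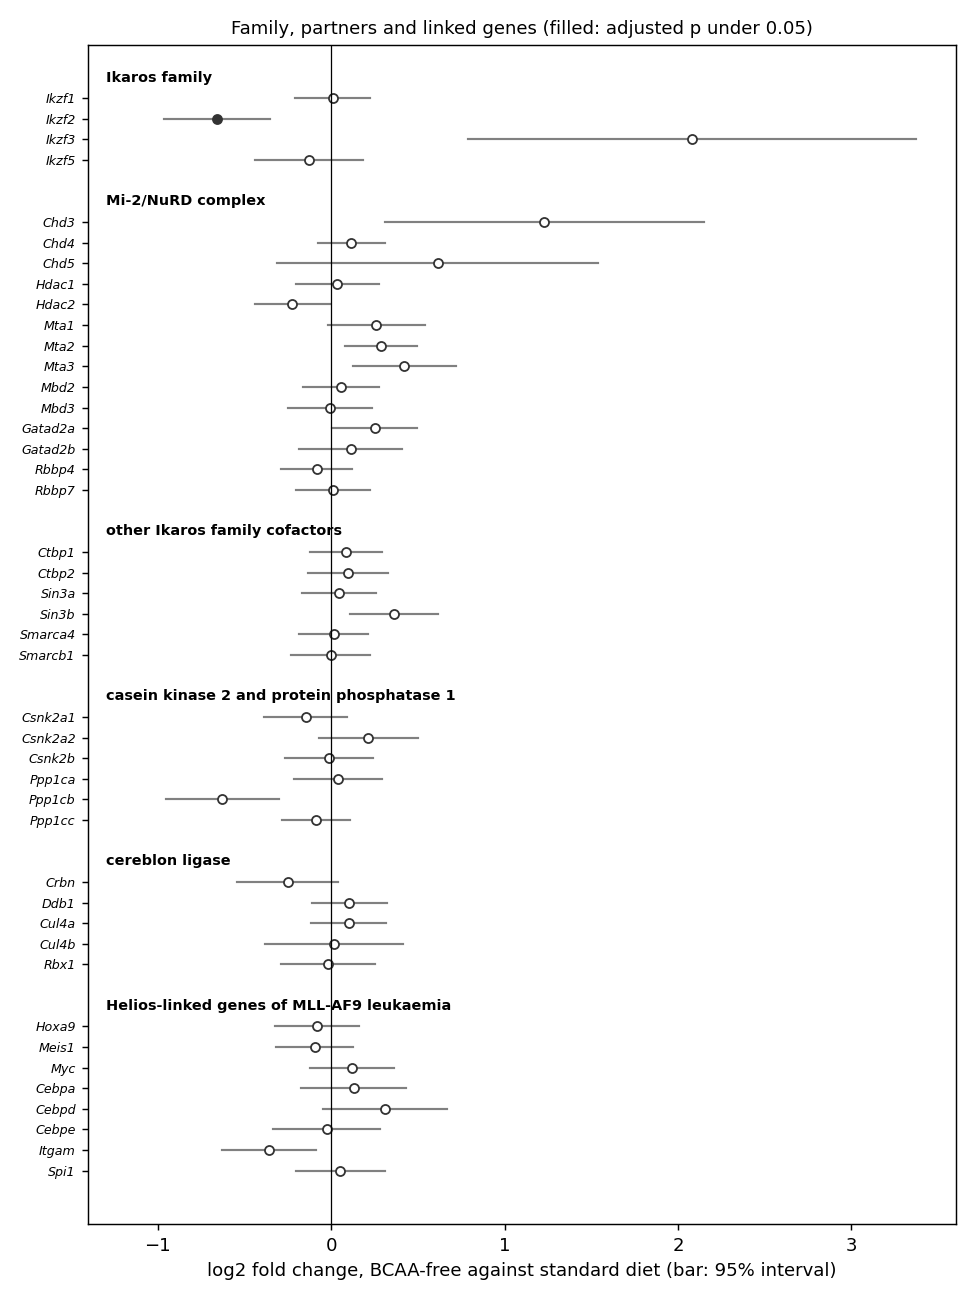
Log2 fold change (BCAA-free against standard diet) with its 95% interval for the tested family members, their chromatin partners, regulators of Ikaros, the cereblon ligase and genes linked to Helios. Filled points have an adjusted p under 0.05 by the quasi-likelihood test of edgeR, and Ikzf2 is the only filled point among those drawn.

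The last list holds lymphoid genes that have been linked to Ikaros in lymphocyte development. Of 16 genes, 10 passed the filter on low counts, and the median over the 10 was 1.44. In edgeR 7 had an unadjusted p under 0.05, against 13.5% of all tested genes. The 2 called genes, Cd79b and Cd79a, rose, and none fell. These are the paired signalling chains of the B cell receptor and stand in the B cell list too. Cd79b was at 8.79 ± 1.71 CPM (SD, n = 5) on the standard diet and 22.4 ± 7.48 CPM (SD, n = 3) on the BCAA-free diet (log2 fold change 1.34, adjusted p = 0.00852). Cd79a was at 0.939 ± 0.549 CPM (SD, n = 5) and 8.39 ± 8.20 CPM (SD, n = 3), with a log2 fold change of 3.12 and an adjusted p of 0.0305 by the quasi-likelihood test of edgeR. Both were highest in BCAA-free replicate 2, where the B cell sum was also highest. Without that library neither passed (adjusted p of 0.0764 for Cd79b and 0.235 for Cd79a), and without BCAA-free replicate 3 the list had 4 called members. Cd79a also failed to pass without standard-diet replicates 2, 4 or 5 or BCAA-free replicate 1.

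Among markers of other cells, Cd163, a scavenger receptor of macrophages, rose from 3.85 ± 1.95 CPM (SD, n = 5) to 12.3 ± 4.75 CPM (SD, n = 3; adjusted p = 0.0450), and the stromal chemokine Cxcl12 rose from 5.21 ± 2.25 to 23.8 ± 13.8 CPM (adjusted p = 0.0374 by the quasi-likelihood test of edgeR). Each was the only called member of its list, of 7 tested macrophage and 3 tested stroma genes. The macrophage genes went both ways. All 7 had an unadjusted p under 0.05 in edgeR, against 13.5% of all tested genes. Of the 7, 5 had positive log2 fold changes and 2 had negative ones. The negative ones were Vcam1 at -0.49 (adjusted p = 0.182 in edgeR, lower without overlap) and Adgre1 at -0.63 (adjusted p = 0.332 in edgeR). Those 2, named after their values were seen, gave most of the list sum, which was 296 to 401 CPM on the standard diet and 222 to 306 CPM on the BCAA-free diet. Both calls were fragile, since of the 8 fits that each drop a single library, Cd163 passed in 2 (without standard-diet replicate 5 or BCAA-free replicate 3) and Cxcl12 in 3 (without standard-diet replicate 2 or 5 or BCAA-free replicate 3). The other 9 marker lists, namely T cell, regulatory T cell, NK cell, plasma cell, plasmacytoid dendritic cell, erythroid, neutrophil, megakaryocyte and myeloid leukaemia genes, held no called member in edgeR. Of their 53 tested genes, 13 had an unadjusted p under 0.05 in edgeR, against 13.5% of all tested genes, and limma-voom called 0. DESeq2 called 2, Hba-a2 (higher) and Mpo (lower), which are named here after their values were seen. Of all genes it tested, DESeq2 called 0.963% higher and 1.85% lower.

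Genes with profiles most like each member were found from the root mean square (RMS) difference of standardised log2 CPM over the 8 libraries, among 9023 other genes whose mean reached 10 CPM (9024 for Ikzf3, which itself lay under 10). The median of this difference over all those genes was between 1.32 and 1.37. Nearest to Helios was gene 100504051, for which no symbol was matched (RMS difference 0.166), followed by Prkcb (0.227), which encodes protein kinase C beta, and Pde3b (0.233), a cyclic nucleotide phosphodiesterase. These were, like Helios, lower in all BCAA-free libraries and highest in standard-diet replicate 2. As they were chosen for the likeness of their profiles, that likeness is no separate result. The log2 fold changes were -0.95 for gene 100504051 (adjusted p = 0.0483), -0.52 for Prkcb (adjusted p = 0.0523) and -0.50 for Pde3b (adjusted p = 0.0605), so that the unnamed gene passed the quasi-likelihood test of edgeR and the others did not. Like that of Ikzf2, the call of gene 100504051 was lost whichever single library was left out.

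The profiles nearest to the other members were less close. For Ikaros they were those of Samd8 (RMS difference 0.244), Prpf18 (0.288) and Kctd12 (0.302), with log2 fold changes between -0.03 and 0.10. For Aiolos they were Sema4d (0.272), a semaphorin of lymphocytes, Scd1 (0.357), a fatty acid desaturase, and Cdc26 (0.359). Sema4d was at 4.38 to 9.70 CPM on the standard diet and at 16.0, 29.3 and 8.97 CPM in BCAA-free replicates 1 to 3. Its highest value was in BCAA-free replicate 2, as its choice by profile implies. For Pegasus they were Dusp11 (0.267), Atp2c1 (0.328) and Mbnl2 (0.376). The likeness is a description over 8 libraries that share their depth and cell makeup.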

How the data were processed

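Per the labels' protocols, libraries of polyadenylated RNA (Kapa mRNA HyperPrep) were sequenced in pairs of 38 bases. The authors deposited 1 table of raw counts per Entrez gene and library, without normalization. The submitters' processing notes name the mm10 build, featureCounts and Cell Ranger, with no roles. The aligner, the strand setting and the handling of multiply mapped reads are not given in the sources used. Groups came from the sample titles. RefSeq's GRCm38.p6 gene table gave symbols for 25275 of 27179 identifiers; the remaining 1904 were tested by number.

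All 8 libraries (14851240 to 38966911 counts) were fitted with edgeR 4.0.16 in R 4.3.3 (quasi-likelihood test, robust dispersion, TMM factors, default filter with minimum count 10 and minimum total 15, diet as the only term). Benjamini-Hochberg adjustment ran over all 13364 tested genes with a threshold of 0.05. The biological coefficient of variation was 23.0%. Standard errors were taken as log2 fold change over the root of F. The procedure was tested on simulated data. The 16 alternatives were DESeq2 1.42.0, limma-voom (limma 3.58.1), other scaling factors, no filter, the non-robust dispersion, a replicate block, and libraries left out singly or as the deepest of each group. No library repeated another of its group: pairwise chi-square values were 20.3 to 66.0 per degree of freedom. P-values set the difference between diets against the spread between these libraries, moderated over all tested genes. The labels do not say how many mice each library holds.

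Transcript lengths, finger stretches and shared runs came from GENCODE transcripts of GRCm38, 1 per gene. The members and the 19 lists were chosen with earlier results of these data known, and no list was tested as a set. Named were all members; up to 3 called genes per list by smallest p; the 3 most abundant genes of the NuRD, cofactor, cereblon ligase and Helios lists; and the 3 profiles nearest to each tested member. Genes outside this rule are said to be so, or are markers and partners (such as Crbn, Pstk and Foxp3) named for their role after their values were seen. One gene that the rule named is not reported here.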

Additional observations from a re-analysis of the deposited data

Results flagged for a closer look

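The 5 standard-diet values of each named gene, each list sum and each ratio within the family, 76 sets in all, were examined for a library apart from the other 4 by Dixon's criterion, which chance meets in about 1 of 20 groups. In 9 sets a library stood apart, and 5 of these were standard-diet replicate 2. In it, Ikzf4 was at 0.454 CPM against 0 to 0.121 CPM in the others, which is a matter of 8 counts. Pde3b, which was chosen for a profile like that of Helios, was at 209.8 CPM there against 157.8 to 165.7 CPM. The ratio of Ikzf2 to Ikzf1 counts there was 1.30 against 0.857 to 0.954, while Ikzf2 itself, at 465.2 CPM, did not meet the criterion. The summed Mi-2/NuRD genes were at 2760 CPM in that library against 2877 to 2923 CPM, and the summed cereblon ligase genes at 846 CPM against 941 to 956 CPM. In standard-diet replicate 5, Cd3e was at 1.87 CPM against 0.357 to 0.624 CPM, Cd3g at 2.00 CPM against 0.509 to 0.600 CPM, and the NK cell marker sum at 10.0 CPM against 1.74 to 3.18 CPM. In standard-diet replicate 3, the plasmacytoid dendritic cell marker sum was at 33.1 CPM against 47.8 to 50.4 CPM. No explanation of these values was tested.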

How the results depend on the processing

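No result changed direction and call together under any alternative. The count of called members, 1, stayed at 1 with DESeq2 and with no filter on low counts and was 0 with limma-voom, RLE factors, upper-quartile factors, the non-robust dispersion, the replicate block and without the deepest library of each group; leaving out 1 library gave 0 to 1, and the 1, without BCAA-free replicate 3, was Ikzf3. The log2 fold change of Ikzf2 was -0.65 (limma-voom), -0.66 (RLE factors and the non-robust dispersion), -0.62 (upper-quartile factors), -0.78 (replicate block, adjusted p = 0.214) and -0.61 (without both deepest libraries, adjusted p = 0.138), and -0.72 to -0.53 without 1 library; that of Ikzf3 was then 0.68 to 2.51. Ikzf5 stayed between -0.20 and -0.02 and was never called.

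The count over all genes, 101 (72 lower, 29 higher), was 382 (251 lower, 131 higher) with DESeq2, 64 (49 lower, 15 higher) with limma-voom, 237 (168 lower, 69 higher) with no filter, 0 with the replicate block and 32 to 134 without 1 library: 52 without standard-diet replicate 2, 55 without 4, 53 without 5, 52 without BCAA-free replicate 1 and 32 without 2. The balance of directions turned without BCAA-free replicate 3 (56 lower, 78 higher) and was nearly even without both deepest libraries (51 lower, 45 higher). Of 142 listed genes, 5 were called, and 14 with DESeq2, 2 with limma-voom, 8 with no filter, 0 with the block, 10 without both deepest libraries and 0 to 10 without 1 library. The lymphoid count of 2 became 6, 1, 4, 0 and 4 in the same order and 0 to 4 without 1 library. The casein kinase 2 and protein phosphatase 1 count of 0 became 1 with DESeq2, no filter and without both deepest libraries, and 0 to 1 without 1 library; that of the other cereblon substrates was 0 to 1 without 1 library, the 1 being without standard-diet replicate 3. The cause of these shifts was not tested, beyond the smaller number of libraries where some were left out.

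The labels give same-numbered libraries nothing in common but a number. Their deviations correlated at -0.25, 0.06 and -0.46, and 1 of 6 libraries correlated best with its own number. This check cannot show whether they shared a day or a litter. Because the labels give no pairing, the fit with the replicate block, which called 0 genes, is not read as a paired test. Of 464 values for the 29 other named genes, 406 stayed on their side of the threshold, 48 lost and 10 gained a call. Of 528 fold changes under alternatives, 38 had another sign than reported, none of them called in either fit. Few counts limit what can be said of Ikzf3 and Ikzf4.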
